A study of Homo sapiens with 2 samples.

Results

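The DNA replication machinery was described here as 52 genes listed by their place in the replisome: the origin recognition complex, the factors that load the helicase, the MCM helicase and its partners, the replicative polymerases, the sliding clamp and its loader, the enzymes that finish Okazaki fragments, RPA and the chromatin assembly factor CAF-1. They were listed by gene symbol, with no measured value in the rule, but the list was made with earlier results of these data known. All 52 were found among the 28615 symbols of the deposited table, each on 1 row. The series held 1 RNA-seq library labelled as an SRD5A1 knockdown, whose title carries the tag "Dox", and 1 library labelled as a control, whose title carries the tag "KD". Both came from HCT116, an established human colorectal cancer line of epithelial origin. Neither tag is explained in the labels, which also leave out how the knockdown was made and whether a clone or a pool of cells was sequenced. With 1 library in each group there is no replicate check, no test and no p-value, and every difference describes these libraries and not the conditions.

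SRD5A1, which encodes steroid 5-alpha reductase type 1, was at 6.25 FPKM in the knockdown library, against 10.8 FPKM in the control library (FPKM, fragments per kilobase of transcript scaled to library size). The knockdown library held 54740670 counts and the control library 41814981. Genes of the mitochondrial genome held 12.8% of the knockdown counts and 18.3% of the control counts. Of 8 markers of a colon epithelial line, 5 were at 1 FPKM or more in both libraries. Summed levels were 1545.4 FPKM in the knockdown and 990.0 FPKM in the control library, mostly from the keratins KRT8, KRT18 and KRT19. LGALS4 had no count, and VIL1 had 4 knockdown counts and 0 control counts. CDX2 was at 7 FPKM in the knockdown and 0.767 FPKM in the control library, while EPCAM went the other way, at 30.2 and 39.7 FPKM. Of 4 adipocyte markers, looked at because the protocol text mentions adipose tissue, ADIPOQ, FABP4 and LEP had no count in either library, and PLIN1 was at 0 FPKM in the knockdown and 0.319 FPKM in the control library. The 4 fibroblast markers summed to 2.53 FPKM in the knockdown and 4.05 FPKM in the control library, nearly all from COL1A1, with DCN at 0. The 3 immune markers summed to 1.29 FPKM in the knockdown and 7.79 FPKM in the control library, nearly all from CD68, with CD3E at 0 and PTPRC at 4 knockdown counts and 0 control counts. The 2 endothelial markers summed to under 0.1 FPKM in each, with CDH5 at 0. The part of these marker and composition differences in the results below was not tested.

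DNA replication starts at origins, which the origin recognition complex (ORC) marks in G1. CDC6 and CDT1 then load the ring-shaped MCM helicase, and geminin blocks CDT1 later in the cycle. In S phase the DBF4-dependent kinase CDC7 and cyclin-dependent kinases recruit CDC45 and GINS, which turn the MCM ring into the active helicase. Polymerase alpha-primase lays primers, polymerase epsilon copies the leading strand and polymerase delta the lagging strand, both tethered by the PCNA clamp. Many of these genes are classical targets of the E2F transcription factors at the G1/S boundary, and MCM and PCNA proteins are used as proliferation markers in colorectal tumours.

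The replication genes lay mostly higher in the knockdown library. Their summed level was 3021.9 CPM (counts per 1000000 counts of the library) in the knockdown library, against 1131.6 CPM in the control library, a ratio of 2.67. The median over the 52 genes was 4.42 FPKM in the knockdown and 1.78 FPKM in the control library, and 18 of them reached 10 FPKM in the knockdown against 9 in the control library. In bulk RNA, a larger share of cells in S phase and more RNA per cell cannot be told apart.

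Ratios of CPM keep all 52 genes, because each has at least 100 counts over both libraries. To count genes past a limit, 0.5 counts were first added to each gene in each library, which places DNA2 just under 4-fold. On this scale 47 of 52 genes lay above a ratio of 1, 32 were higher by 2-fold or more in the knockdown library, 13 by 4-fold or more, and 1 was lower by 2-fold or more. Over the 13673 symbols with at least 100 counts, 62.7% lay above a ratio of 1, 28.7% were higher by 2-fold or more, 10.3% by 4-fold or more, and 12.1% were lower by 2-fold or more. The ratios ran from 0.398 for DBF4 to 12.8 for ORC5, with a median of 2.60. Exact Clopper-Pearson 95% intervals of these ratios, which cover counting error only, lay above 1 for 45 genes and below 1 for 2, and held 1 for 5 genes (MCM8, CDC7, POLD4, POLE3 and RFC3). The same count of intervals over all symbols is not given here, so these counts have no background beside them. This choice of scale and filter was made after seeing the data.

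Levels were otherwise compared as log2(FPKM + 1), the control subtracted from the knockdown, with 2-fold apart meaning a difference of 1 or more in size. The pseudocount of 1 understates the differences of weakly expressed genes. A mean of at least 1 FPKM over both libraries was reached by 40 of the 52 genes and by 10143 symbols in all. Of these 40, 37 had a difference above 0 (64.3% of all expressed genes), 25 were 2-fold higher or more in the knockdown library (20.9%), 7 were 4-fold higher or more (3.53%) and 0 were 2-fold lower (6.83%). For 7 of the 40 (ORC2, ORC5, ORC6, CDC45, GINS3, POLA2 and PRIM1) the control level was under 1 FPKM, so that they passed the filter only through the library in which they were higher. With 1 FPKM required in both libraries, 30 of 33 genes had a difference above 0, against 64.1% of the 8485 symbols that passed, 19 were 2-fold higher or more, against 17.7%, 7 were 4-fold higher or more, against 2.83%, and 0 were 2-fold lower, against 5.14%. The median difference was 1.13 over the 40 genes and 0.30 over all expressed genes.

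How far the whole comparison leaned towards the knockdown library depended on scaling. Of all expressed genes 2-fold apart, 75.3% were higher in the knockdown library, and this share was 53.1% with the median ratio set to 1, 51.6% with the upper quartile and 61.1% with TMM, which moved the median of all expressed genes to -0.00, -0.02 and 0.10. Under these scalings 16, 15 and 17 of the 40 replication genes were 2-fold higher or more, against 13.1%, 12.7% and 15.2% of all expressed genes, and 0 were 2-fold lower, against 11.6%, 11.9% and 9.66%. The median of the replication genes lay 0.83 above that of all expressed genes with the library total, a gap that scalings of this kind, which move every gene by 1 factor, leave nearly as it is.

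**Figure D1:**
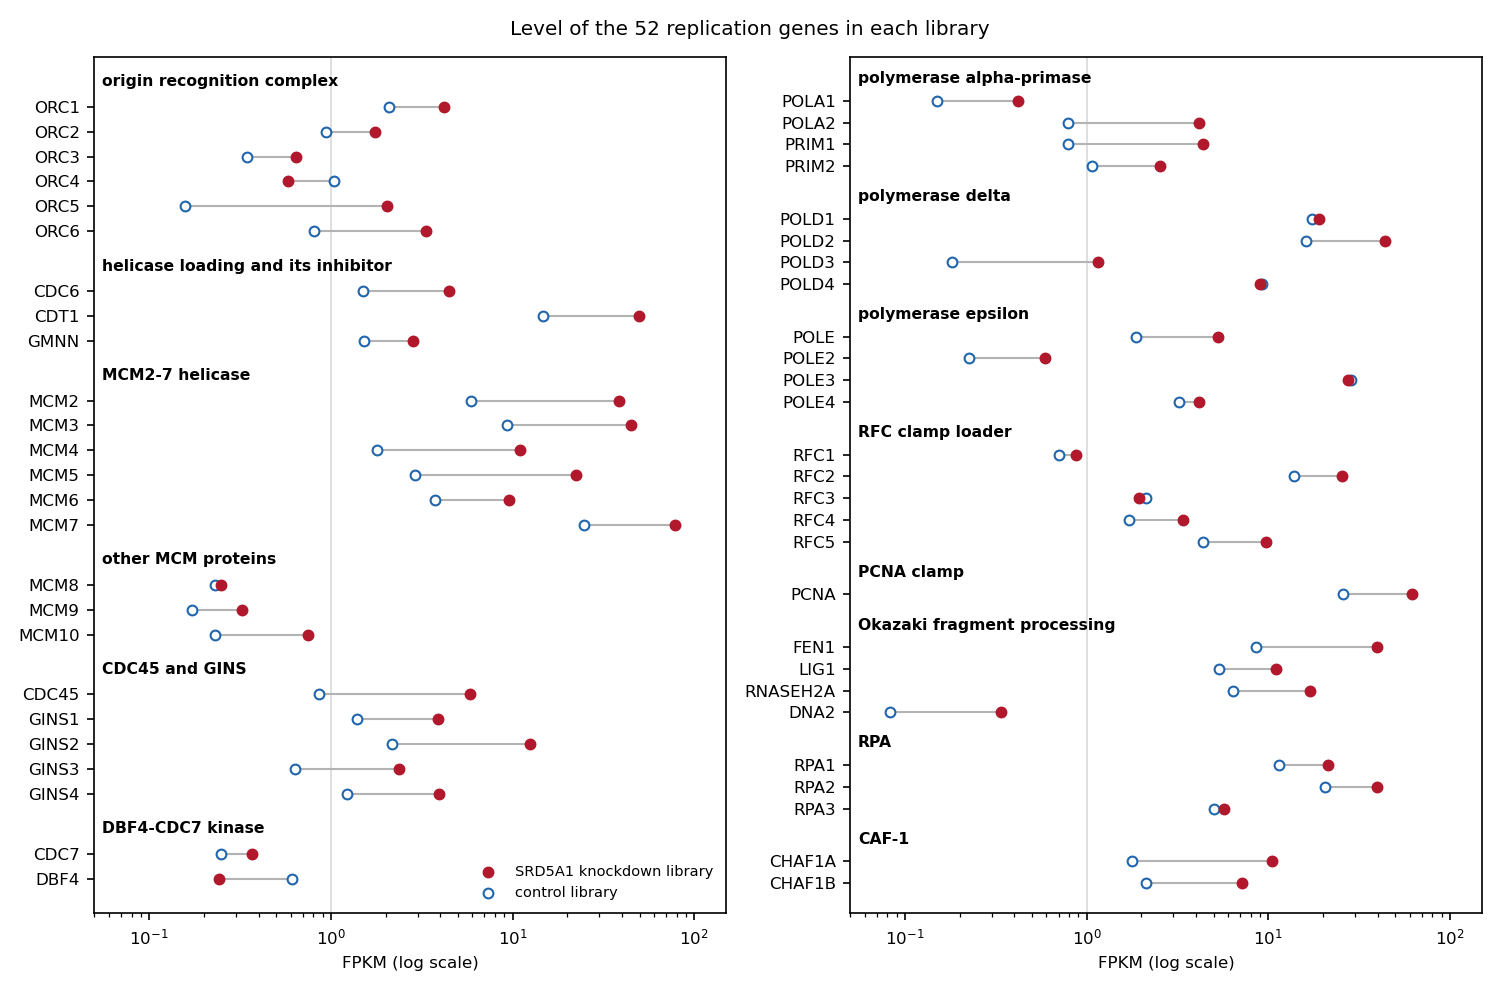
Level of each of the 52 replication genes in FPKM on a log axis, in the SRD5A1 knockdown library (filled red) and the control library (open blue), grouped by complex, with a grey line joining the values of a gene. The knockdown value lies to the right for 47 genes, with the widest gap for ORC5, and to the left for DBF4, ORC4, RFC3, POLE3 and POLD4.

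**Figure D2:**
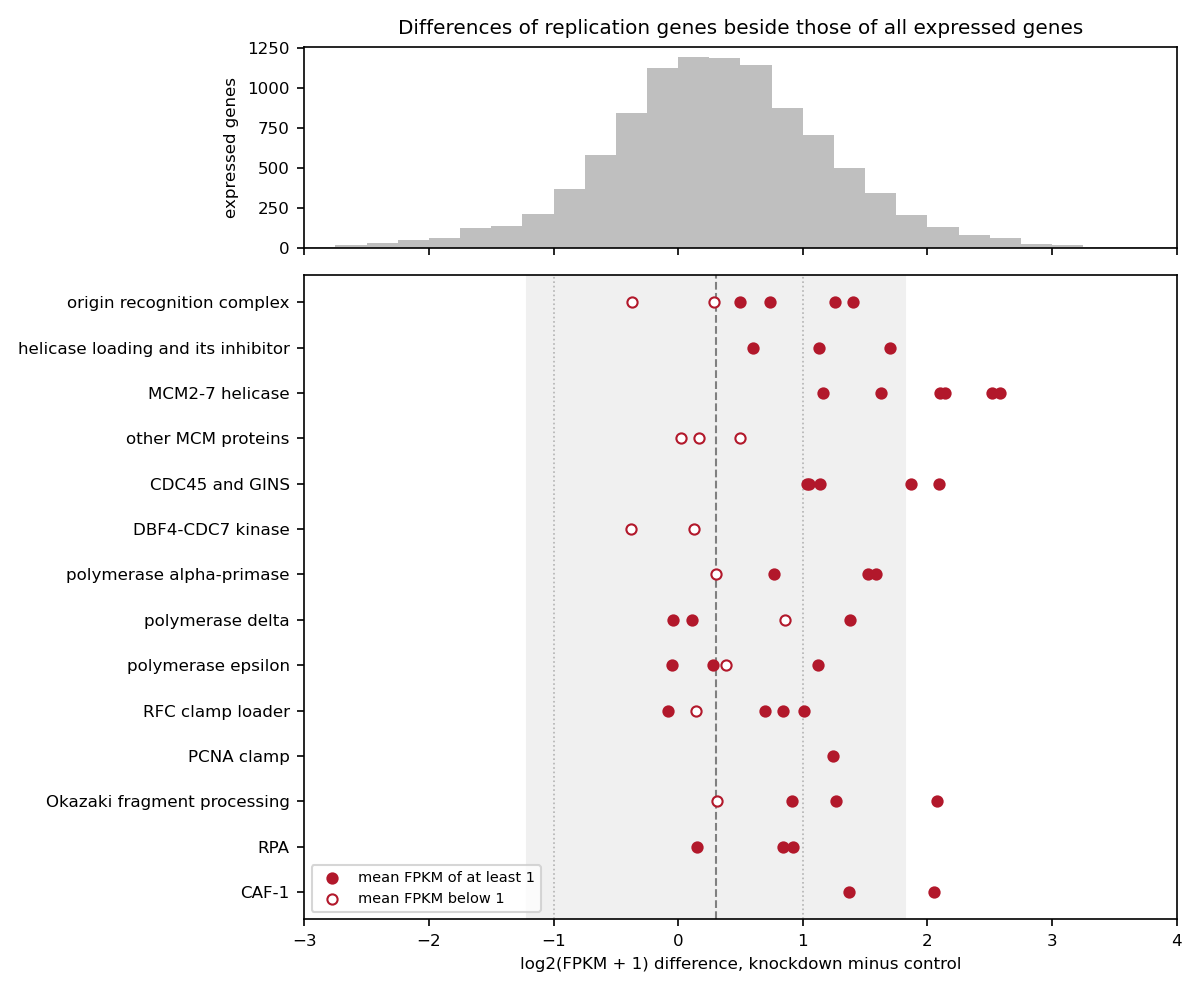
Knockdown minus control difference in log2(FPKM + 1) of each replication gene by complex (filled, mean of at least 1 FPKM; open, below it), under a histogram of all 10143 expressed genes, with the axis drawn from -3 to 4. The dashed line is the median of all expressed genes (0.30), the grey band their 5th to 95th percentile (-1.21 to 1.82), and the dotted lines the 2-fold limits; the points beyond the band on the right belong to MCM2, MCM3, MCM4, MCM5, CDC45, GINS2, FEN1 and CHAF1A.

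Because E2F sites are the best known promoter feature of replication genes, RefSeq promoter windows (GRCh38.p14, from 250 bases before to 50 after an annotated start) were searched on both strands for the words TTTCCCGC, TTTCGCGC, TTTGCCGC and TTTGGCGC. Windows were matched by symbol for 45 of the 52 genes. None was matched for MCM4, MCM5, GINS4, POLD3, RPA2, RPA3 and DNA2. The searched genes thus leave out MCM5, which had the largest difference of the 52 genes, 2.58. A word was found for 21 of the 45 genes (46.7%), against 3.99% of the 27305 genes with a window and 6.85% of the 7054 expressed ones. By window the shares were 36.2% of 58 for the replication genes and 3.31% of 35116 in all. The 21 genes held 25 separate sites after overlapping words were merged, of which 20 began between 100 bases before and 30 bases after the start. The following 30-base windows show the word in capitals for 9 genes that were 2-fold higher or more in the knockdown library, and for 3 genes (POLE4, RFC3 and MCM8) that hold a word but differed by 0.28, -0.08 and 0.02 on the log2(FPKM + 1) scale.
MCM2, chr3:127598404-127598433, plus strand: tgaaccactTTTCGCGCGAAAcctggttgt
MCM3, chr6:52284728-52284757, minus strand: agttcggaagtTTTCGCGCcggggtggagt
MCM7, chr7:100101388-100101417, minus strand: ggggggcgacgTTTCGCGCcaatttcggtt
CDC6, chr17:40287875-40287904, plus strand: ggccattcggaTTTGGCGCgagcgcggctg
CDT1, chr16:88803743-88803772, plus strand: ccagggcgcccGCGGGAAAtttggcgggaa
GINS2, chr16:85688967-85688996, minus strand: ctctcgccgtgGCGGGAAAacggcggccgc
POLA2, chr11:65261898-65261927, plus strand: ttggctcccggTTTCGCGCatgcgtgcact
POLE, chr12:132687342-132687371, minus strand: tgggtgggagcGCGCCAAAtttctcccctg
PCNA, chr20:5126663-5126692, minus strand: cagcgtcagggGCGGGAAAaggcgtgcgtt
POLE4, chr2:74958601-74958630, plus strand: ctccagcccgcGCGGGAAAgggcctgcgcc
RFC3, chr13:33818083-33818112, plus strand: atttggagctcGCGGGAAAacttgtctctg
MCM8, chr20:5950667-5950696, plus strand: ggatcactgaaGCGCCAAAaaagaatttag

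Sequences are written 5′ to 3′ on the strand of the gene, so a word on the opposite strand reads as its reverse complement. In MCM2 the capitals hold words on both strands that overlap, and the same arrangement stands at 2 places before the start of MCM6. The stretch from 170 to 61 bases before that start (chr2:135876504-135876613, minus strand) is shown because it carries more of these words than any other window of the 45 genes.
MCM6: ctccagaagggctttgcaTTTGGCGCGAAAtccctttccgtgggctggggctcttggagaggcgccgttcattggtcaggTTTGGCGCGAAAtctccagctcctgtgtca

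Among the 45 genes, genes with and without an E2F word overlapped in their difference between the libraries. Of the 21 genes with a word, 12 were 2-fold higher or more in the knockdown library (57.1%, median difference 1.05), and of the 24 without one, 10 were (41.7%, median 0.80). The word-bearing genes ran from RFC3 at -0.08 to MCM2 at 2.52, and those without ran from DBF4 at -0.38 to FEN1 at 2.08. Over all expressed genes with a window the same split gave 23.6% of 483 genes with a word and 21.6% of 6571 without one, where the expressed replication genes gave 12 of 16 with a word and 10 of 19 without. A CCAAT box, the NF-Y site, was found for 27 of the 45 genes (60%), against 39.7% of all genes and 42.9% of the expressed ones, and the word TTTGAA, the CHR element of G2/M genes, for 2 of 45 (4.44%), against 18.2% of all and 11% of expressed genes. A match is a description of the letters, not evidence of binding.

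**Figure D3:**
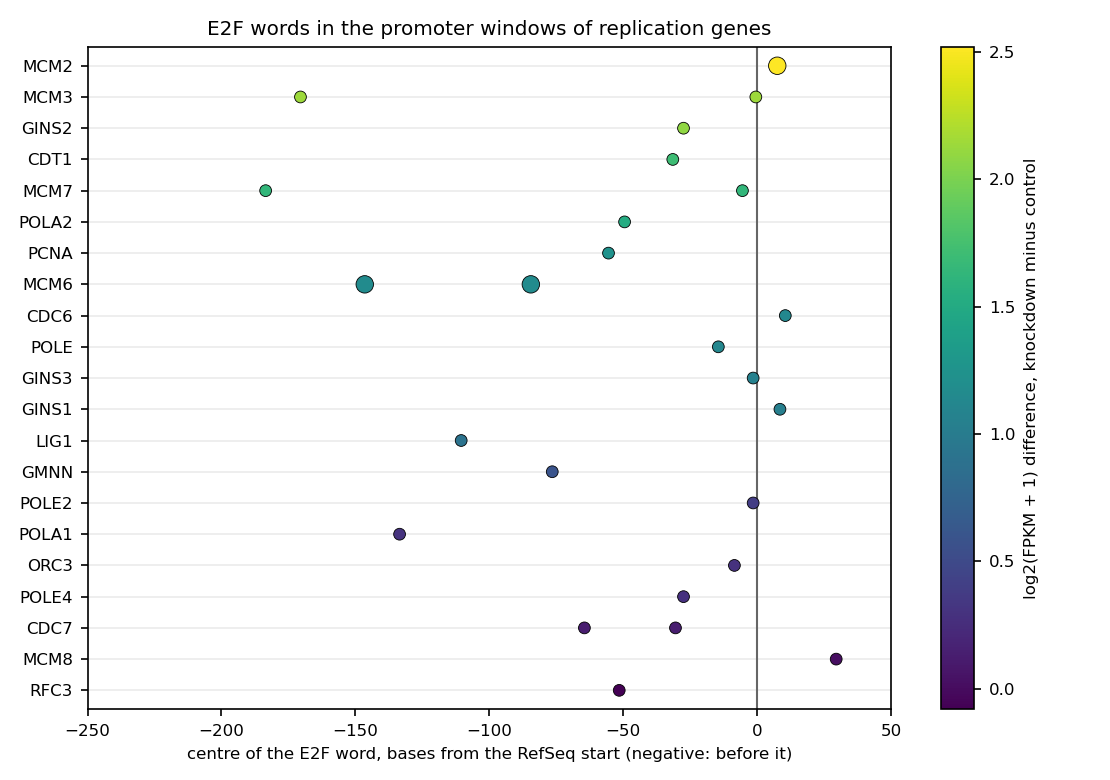
Position of each E2F word in the promoter windows of the 21 replication genes that hold one, in bases from the RefSeq start, with genes ordered from the largest difference at the top (MCM2, 2.52) to the smallest (RFC3, -0.08). Colour gives the knockdown minus control difference in log2(FPKM + 1), and large points are overlapping words on both strands; sites lie near the start in genes with large and with small differences.

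Among the origin recognition genes, ORC1 to ORC6, 5 were higher in the knockdown library and 1 was lower. Of all symbols with at least 100 counts, 62.7% were higher in the knockdown library by their CPM ratio. ORC1, the large subunit whose protein is degraded in S phase, was at 4.18 FPKM in the knockdown library, against 2.10 FPKM in the control library. ORC6 (chr16:46689643-46698394) was at 3.35 FPKM in the knockdown and 0.813 FPKM in the control library. ORC5 (chr7:104126341-104208047, 15 exons in its longest annotated transcript) was at 2.05 FPKM (501 counts) in the knockdown and 0.157 FPKM (30 counts) in the control library. Its ratio of CPM, 12.8 (95% interval 8.82 to 19.1), was the highest of the 52 genes, and it rests on the 30 control counts. ORC2 was at 1.75 FPKM in the knockdown and 0.942 FPKM in the control library, and ORC3 at 0.640 and 0.344 FPKM in the same libraries. ORC4 alone went towards the control, with 0.583 FPKM in the knockdown and 1.04 FPKM in the control library, a CPM ratio of 0.561 (0.487 to 0.647). The median difference of the 6 genes was 0.62. Of the 4 that passed the filter on mean FPKM, 2 (ORC5 and ORC6) were 2-fold higher or more, against 20.9% of all expressed genes. Both had a control level under 1 FPKM and passed only through the knockdown library.

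CDC6 and CDT1, which bring the helicase to ORC, were both higher in the knockdown library. CDT1 (chr16:88803789-88809258) was at 49.7 FPKM in the knockdown and 14.7 FPKM in the control library, a difference of 1.7. CDC6 was at 4.47 FPKM in the knockdown, against 1.5 FPKM in the control library, a difference of 1.13. Geminin (GMNN), the inhibitor of CDT1, was at 2.82 FPKM in the knockdown and 1.53 FPKM in the control library, a smaller difference of 0.60. The level of CDT1 was thus 17.6 times that of GMNN in the knockdown library and 9.60 times in the control library.

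The 6 subunit genes of the MCM2-7 helicase held the largest median difference of the 14 complexes, 2.12. All 6 were 2-fold higher or more in the knockdown library, against 20.9% of all expressed genes. MCM6, however, was so in only 5 of the 9 ways of processing tried for single genes. MCM5 (chr22:35400134-35424501) was at 22.3 FPKM in the knockdown and 2.90 FPKM in the control library, and MCM2 (chr3:127598410-127622436) at 38.8 and 5.93 FPKM. MCM4 was at 11 FPKM in the knockdown and 1.79 FPKM in the control library, with a CPM ratio of 6.08 (5.60 to 6.62). MCM3 was at 44.7 FPKM in the knockdown and 9.36 FPKM in the control library, and MCM7 (chr7:100092728-100101940) at 78.6 and 24.7 FPKM. MCM6 had the smallest difference, 1.16, with 9.58 FPKM in the knockdown and 3.73 FPKM in the control library. Ordered from the most positive difference down, MCM5 and MCM2 stood at ranks 122 and 135 of the 10143 expressed genes, and no replication gene was among the first 100. An unnamed gene on the opposite strand, AC023593, shares 22.7% of the exon bases of MCM2 and had 625 knockdown counts and 49 control counts. Without stated use of strand, its reads and those of MCM2 cannot be told apart.

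Because the ratios differed between subunits, the make-up of the helicase transcripts differed between the libraries. The summed level of MCM2 to MCM7 was 204.9 FPKM in the knockdown and 48.4 FPKM in the control library. MCM7 made up 38.3% of this sum in the knockdown library, against 51.1% in the control library, and MCM6 4.68% against 7.70%. MCM2 made up 18.9% in the knockdown library and 12.2% in the control library, and MCM5 10.9% and 6%. The most abundant subunit stood 8.20 times above the least abundant in the knockdown library (MCM7 over MCM6) and 13.9 times in the control library (MCM7 over MCM4). Ordered by counts per kilobase of the longest annotated transcript instead of FPKM, MCM5 and MCM6 changed places in the control library, and the order in the knockdown library was the same.

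**Figure D4:**
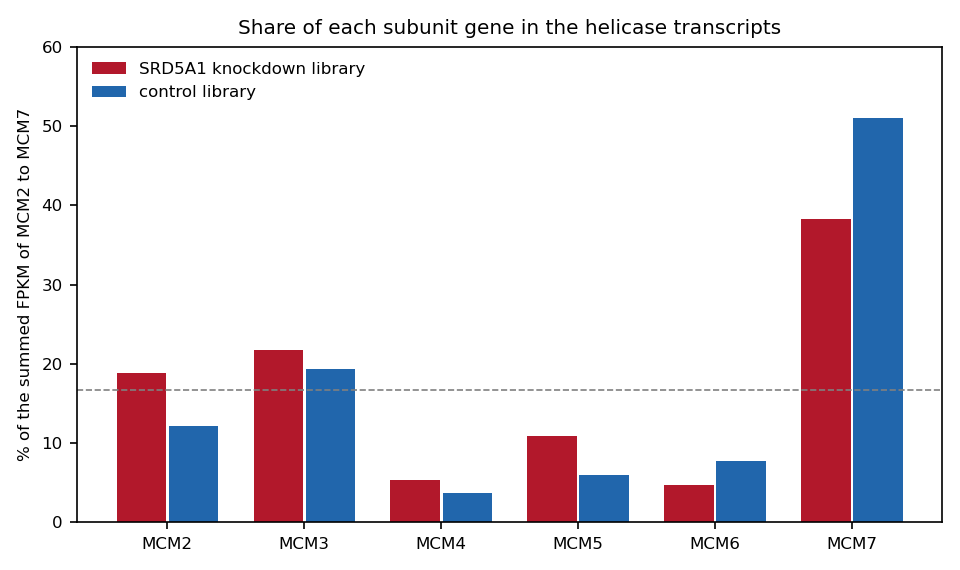
Percentage of the summed FPKM of MCM2 to MCM7 that each subunit gene took in the SRD5A1 knockdown library (red, left of each pair) and the control library (blue), with an equal share drawn as a dashed line. MCM7 took 38.3% in the knockdown library and 51.1% in the control library, and MCM2 and MCM5 took larger shares in the knockdown library.

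CDC45 and the 4 GINS genes, the helicase's activating partners, were all 2-fold higher or more in the knockdown library, against 20.9% of all expressed genes. However, GINS1, GINS3 and GINS4 were so in only 4, 4 and 5 of the 9 ways of processing. The control levels of CDC45 and GINS3 were under 1 FPKM, so both passed the filter on mean FPKM only through the knockdown library. CDC45 (chr22:19479459-19520612) was at 5.81 FPKM in the knockdown and 0.859 FPKM in the control library, a CPM ratio of 6.62 (5.50 to 8.04). GINS2 was at 12.5 FPKM in the knockdown and 2.18 FPKM in the control library, a difference of 2.09. The other GINS genes lay close together, with differences of 1.03 for GINS1, 1.05 for GINS3 and 1.14 for GINS4. GINS1 was at 3.87 FPKM in the knockdown and 1.39 FPKM in the control library, and GINS4 at 3.92 and 1.23 FPKM. With the median ratio set to 1 or the upper quartile, the median of this complex was 0.89 and 0.87.

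The kinase that fires origins was weakly expressed, and its subunits lay on opposite sides of 0. DBF4, its regulatory subunit, was at 0.242 FPKM (74 counts) in the knockdown and 0.612 FPKM (142 counts) in the control library, a CPM ratio of 0.398 (0.296 to 0.531). CDC7, the catalytic subunit, was at 0.366 FPKM (86 counts) in the knockdown and 0.249 FPKM (46 counts) in the control library, with an interval of the CPM ratio of 0.987 to 2.09. DBF4 was the only replication gene that was 2-fold lower in CPM. The exons of SLC25A40 on the opposite strand cover 3.10% of those of DBF4, and SLC25A40 had a CPM ratio of 0.566.

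The remaining MCM genes were also weakly expressed. MCM10, which acts when the helicase is activated, was at 0.745 FPKM (268 counts) in the knockdown and 0.230 FPKM (64 counts) in the control library, a CPM ratio of 3.2 (2.43 to 4.27). MCM8 and MCM9 form a separate helicase used in recombination repair. MCM9 was at 0.323 FPKM in the knockdown and 0.172 FPKM in the control library, and MCM8 at 0.249 and 0.230 FPKM. ASF1A, whose exons overlap 1.1% of those of MCM9 on the opposite strand, had a CPM ratio of 6.26. The MCM8 ratio of 1.07 (0.810 to 1.42) was within counting error of 1.

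The 4 genes of polymerase alpha-primase had a median difference of 1.14. PRIM1, the catalytic primase subunit, was at 4.38 FPKM in the knockdown and 0.785 FPKM in the control library, and POLA2, the accessory subunit, at 4.13 and 0.793 FPKM. PRIM2, the large primase subunit, was at 2.52 FPKM in the knockdown and 1.07 FPKM in the control library, so PRIM1 was 1.73 times PRIM2 in the knockdown library and 0.733 times in the control library. POLA1, the catalytic polymerase, was at 0.421 FPKM (175 counts) in the knockdown and 0.151 FPKM (49 counts) in the control library, a CPM ratio of 2.73 (1.98 to 3.83). A gene annotated as AP000944 on the same strand shares 35.1% of the exon bases of POLA2 and had 277 knockdown counts and 0 control counts. With its counts added, the CPM ratio of POLA2 was 6.05 (5.27 to 6.98), against 5.11 (4.44 to 5.91) without them.

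The replicative polymerases were uneven, and their median differences were lower than that of polymerase alpha-primase. For polymerase delta, POLD2 (the second subunit) was at 43.7 FPKM in the knockdown and 16.2 FPKM in the control library, a difference of 1.38, while POLD1, the catalytic subunit, was at 18.9 and 17.4 FPKM. POLD2 was therefore 2.31 times POLD1 in the knockdown library and 0.931 times in the control library. POLD4, the smallest subunit, was at 8.98 FPKM in the knockdown and 9.26 FPKM in the control library, with a CPM ratio of 0.972 (0.906 to 1.04). POLD3, a PCNA-binding subunit, was at 1.15 FPKM (415 counts) in the knockdown and 0.181 FPKM (50 counts) in the control library. Its CPM ratio of 6.34 (4.72 to 8.68) was large although its difference on the log2(FPKM + 1) scale was 0.86.

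For polymerase epsilon, the catalytic POLE (chr12:132623753-132687365) was at 5.26 FPKM in the knockdown and 1.87 FPKM in the control library, a difference of 1.12. POLE2, which links the polymerase to GINS, was at 0.591 FPKM (118 counts) in the knockdown and 0.224 FPKM (35 counts) in the control library. POLE3 and POLE4 are histone-fold subunits, and POLE3 also serves in a chromatin remodelling complex. POLE3 was at 27.4 FPKM in the knockdown and 28.4 FPKM in the control library, and POLE4 at 4.16 and 3.23 FPKM. POLE3 was 5.21 times POLE in the knockdown library and 15.2 times in the control library. The small subunits POLD4, POLE3 and POLE4 had differences of -0.04, -0.05 and 0.28 on the log2(FPKM + 1) scale, and those of POLD1 and POLE4 changed sign with the scaling.

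PCNA, the sliding clamp (chr20:5114953-5126626), was at 62.1 FPKM in the knockdown and 25.8 FPKM in the control library, a difference of 1.24 and a CPM ratio of 2.41 (2.29 to 2.54). The clamp loader subunits differed less, with a median of 0.70. RFC2 was at 25.6 FPKM in the knockdown and 13.9 FPKM in the control library, RFC5 at 9.76 and 4.36 FPKM, and RFC4 at 3.39 and 1.71 FPKM. RFC5, at a difference of 1.01, was the only one of the 5 that was 2-fold apart, and it was so in 4 of the 9 ways of processing. RFC3 was at 1.95 FPKM in the knockdown and 2.12 FPKM in the control library, and RFC1, the large subunit, at 0.872 and 0.705 FPKM.

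Among the enzymes that process Okazaki fragments, the flap endonuclease FEN1 (chr11:61792911-61797238) had the largest difference, 2.08, with 39.5 FPKM in the knockdown and 8.55 FPKM in the control library. RNASEH2A, the catalytic subunit of RNase H2, was at 16.9 FPKM in the knockdown and 6.43 FPKM in the control library. DNA ligase 1 (LIG1) was at 11 FPKM in the knockdown and 5.38 FPKM in the control library, a difference of 0.91. DNA2, a nuclease and helicase for long flaps, was at 0.339 FPKM (110 counts) in the knockdown and 0.0830 FPKM (21 counts) in the control library, a CPM ratio of 4 (2.49 to 6.72).

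RPA, the single-stranded DNA binding trimer, had a median difference of 0.84, with none of its genes 2-fold apart and with RPA3 changing sign with the scaling. RPA2 was at 39.7 FPKM in the knockdown and 20.6 FPKM in the control library, RPA1 at 21.3 and 11.4 FPKM, and RPA3 at 5.69 and 5.02 FPKM. The CAF-1 subunits, which deposit histones H3 and H4 on new DNA, were both 2-fold higher or more, against 20.9% of all expressed genes. CHAF1A (chr19:4402640-4443397) was at 10.5 FPKM in the knockdown and 1.78 FPKM in the control library, and CHAF1B at 7.12 and 2.13 FPKM, with differences of 2.05 and 1.37.

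**Figure D5:**
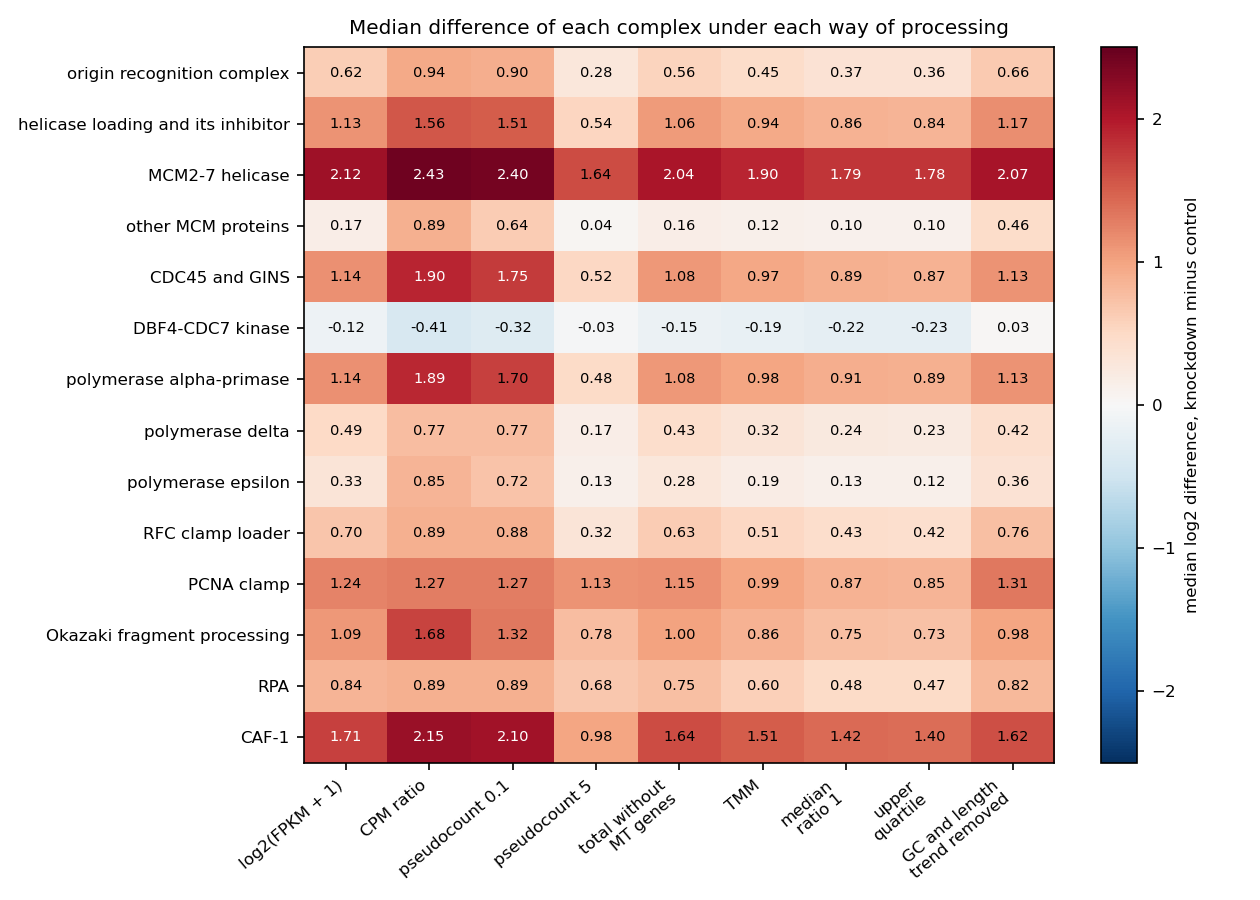
Median log2 difference, knockdown minus control, of each complex (rows, with PCNA as a single gene) under the main measure and 8 other ways of processing (columns). MCM2-7 ranged from 1.64 to 2.43 and CAF-1 from 0.98 to 2.15, while the DBF4-CDC7 kinase, from -0.41 to 0.03, was the only complex whose median took both signs.

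In all 9 ways of processing tried for single genes, 9 genes were 2-fold higher or more: MCM2, MCM3, MCM4, MCM5, MCM7, CDT1, GINS2, FEN1 and CHAF1A. POLD2 was so in 8 and just under 2-fold with the upper quartile. The share of all expressed genes that were so in all 9 is not given here. In single settings it ran from 7.2% with a pseudocount of 5 to 28.3% for the CPM ratio. The sign of the difference changed with the setting for 6 genes (MCM8, POLD1, POLE4, RFC1, RFC3 and RPA3) and for none of the other 46. The transcripts of the 52 genes had a median GC content of 46.0%, against 52.4% for the expressed genes, and a median length of 3224 bases against 2934. Across the 52 genes, which share both libraries and are not independent, the difference had a Spearman rho of 0.51 with mean FPKM and 0.53 with transcript GC content. For the CPM ratio, which carries no pseudocount of 1, the values were 0.14 and 0.29. Over the 10136 expressed genes with a transcript sequence, rho of the difference was 0.02 with mean FPKM and 0.15 with GC content. For their CPM ratio the values were -0.04 and 0.13. The 52 genes were not filtered on mean FPKM here, so these sets are not alike.

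Other replication factors, listed apart from the 52, gave a mixed picture. Of 11 listed chromatin factors of the fork, 10 were expressed and 6 of these were 2-fold higher or more in the knockdown library (60%, against 20.9% of all expressed genes; median 1.19). The histone chaperones ASF1B and ASF1A were at 37.0 and 2.90 FPKM in the knockdown library, against 7.69 and 0.456 FPKM in the control library, and UHRF1, which guides maintenance methylation, had a difference of 1.58. TONSL, NASP and RBBP4, a histone-binding subunit shared with CAF-1, followed at 1.42, 1.26 and 1.11. Of 21 fork and clamp accessory factors, 11 were expressed and 2 were 2-fold higher or more (18.2%, near the 20.9% of all expressed genes; median 0.70). These were CHTF8 (11.5 FPKM in the knockdown and 1.13 FPKM in the control library), part of the alternative clamp loader that serves cohesion, and the fork-remodelling enzyme SMARCAL1 (1.18). DSCC1, TIMELESS, PCLAF and RTEL1 had differences of 0.88, 0.85, 0.75 and 0.70, and the topoisomerase TOP1 went the other way, at 14.1 FPKM in the knockdown and 20.8 FPKM in the control library.

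Only 3 of 7 initiation co-factors were expressed. MCMBP, an MCM chaperone, was at 10.1 FPKM in the knockdown and 3.27 FPKM in the control library, and RECQL4 at 23.3 and 10.8 FPKM. DONSON, which helps deliver GINS, was lower in the knockdown library, at 1.23 FPKM, against 2.95 FPKM in the control library, a CPM ratio of 0.420 (0.362 to 0.486). Beside these, 8 of 11 expressed nucleotide supply genes were 2-fold higher or more (72.7%, against 20.9%; median 1.20), with TK1, TYMS and DTYMK at differences of 1.7, 1.54 and 1.53. RRM2B, a ribonucleotide reductase subunit named after its values were seen, went the other way, at 0.702 FPKM in the knockdown and 1.36 FPKM in the control library, a CPM ratio of 0.517 (0.44 to 0.608). Of 13 expressed mitosis genes, 2 (AURKA and PLK1) were 2-fold higher or more (15.4%, against 20.9%), the median was 0.47, and CDC20 was at 96.6 FPKM in the knockdown and 142.3 FPKM in the control library. The differences between these lists and the replication genes were not tested.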

How the data were processed

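RNA-seq was done on 1 SRD5A1 knockdown and 1 control library of HCT116 cells. The deposited table, 31798 rows long, gives each gene's FPKM and raw counts as the authors made them, per the file headers. Per the labels' protocols, poly(A) RNA was sequenced as paired ends. The mouse build mm8, HISAT2 2.0, StringTie 1.3.0 and Bowtie 0.12.2 are named, per the submitters' processing notes, without their roles. The identifiers are human, and all 52 gene ends lie within 3377 bases of GENCODE 29, so positions are given as GRCh38. How reads were counted, and whether strand was used, is not given in the sources used here. Between the libraries, the ratio of counts per FPKM (median 1.31) equals the ratio of the total counts (1.31), so both units share their scaling.

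Rows were summed by symbol. Differences are knockdown minus control, in log2(FPKM + 1). Genes with a mean FPKM of at least 1 counted as expressed. CPM ratios carry exact Clopper-Pearson 95% intervals (SciPy 1.17.1). The labels name no molecular identifiers, so intervals cover counting error only. Where no read was counted, levels of up to 3 counts (0.0548 CPM in the knockdown, 0.0717 CPM in the control library) are possible. TMM factors came from edgeR 4.0.16, and no count model was fitted. GC content and length are those of the longest GENCODE 29 transcript named in a row. The steps were tested on simulated data. Any of the 52 genes could be named, as could SRD5A1 and, of each other list, the 6 largest differences plus genes against the list's median; overlapping neighbours, RRM2B and the KEGG genes were named after their values were seen. The 52 genes, lists and rules were chosen with earlier results of these data known.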

Additional observations from a re-analysis of the deposited data

How the results depend on the processing

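With 40 genes passing the filter, 25 were 2-fold higher or more and 0 were 2-fold lower, with a median of 1.13. The number higher was 11 with a pseudocount of 5 (7.2% of all expressed genes) and 14 of 22 where the mean FPKM had to reach 5 (22.4%). It was 16 with the median ratio set to 1 (13.1%) and 15 with the upper quartile (12.7%), against 20.9% with the settings of the report. The FPKM limit of 5 left fewer genes to count, and a larger pseudocount makes every difference smaller. The 2 scalings lowered every log2 ratio, before the pseudocount, by 0.38 (median ratio) and 0.40 (upper quartile). Over the genes passing each filter, the number lower was 0 in every other setting and was 1 (DBF4) for CPM ratios at 100 counts or more. The median was 1.45 for CPM ratios, 1.42 with a pseudocount of 0.1, 0.66 with 5, 0.85 with the median ratio set to 1, 0.84 with the upper quartile, and 1.38 for CPM ratios at 100 counts or more. It stayed within 0.91 to 1.25 in the other alternatives, which were no filter, the limit of 5 on mean FPKM, FPKM of at least 1 in both libraries, TMM, totals without mitochondrial genes, the GC and length trend removed, and the row with the highest counts. The filters on both libraries and on 100 counts were chosen after seeing the data. No 2-fold gene changed sign under any of these settings. Depth limits the weakest genes most: DNA2, ORC5 and POLE2 rest on 21, 30 and 35 control counts. No paired analysis was possible because each group has 1 library, and leaving out a replicate was not possible either.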

Other observations

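The deposited table's own KEGG column lists 36 genes under DNA replication, of which 31 are among the 52. The other 5 were looked at after their values were seen. SSBP1, the single-stranded DNA binding protein of mitochondria, was at 11.2 FPKM in the knockdown and 3.03 FPKM in the control library. RNASEH1, which removes RNA from hybrids in nucleus and mitochondria, was at 8.64 FPKM in the knockdown and 2.15 FPKM in the control library. RNASEH2C and RNASEH2B, the accessory subunits of RNase H2, were at 5.23 and 0.214 FPKM in the knockdown library, against 3.03 and 0.0682 FPKM in the control library. RPA4 had 4 knockdown counts and 0 control counts.

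Some neighbours whose exons overlap those of replication genes on the opposite strand had ratios of their own. SMYD4, which shares 2.84% of the exon bases of RPA1, had 1065 knockdown counts and 112 control counts. AP4M1, which shares 8.94% of those of MCM7, had a CPM ratio of 2.74, against 3.17 for MCM7. EIF4A2 shares 0.701% of those of RFC4 and had 5675 knockdown counts and 11172 control counts, a ratio of 0.388, while RFC4 stood at 1.97. Whether reads of these neighbours entered the values of the replication genes was not tested.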
